A study of Mus musculus with 8 samples.

Results

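The 10 genes described here encode subunits of the hypoxia-inducible factors (HIF), prolyl hydroxylases that control them, and HIF targets, with aldolases left out. They were given as a list of symbols, Hif1a, Epas1, Egln1, Egln3, Bnip3, Bnip3l, Vegfa, Pdk1, Hk2 and Pfkfb3. Matching Ensembl gene identifiers to GENCODE M21 symbols found all 10 of them among the 25367 genes of the deposited table, and all 10 passed the filter on low counts. RNA-seq was done on ILC2s, the innate lymphoid cells that secrete IL-5 and IL-13. They were sorted from the large intestine of wild-type C57BL/6 mice and expanded for 5 days in a medium with IL-33, IL-25, IL-7 and IL-2 (10 ng/mL of each). One group, of 4 libraries, was then exposed to SC-57461A for 16 hours, and the other, also of 4 libraries, to vehicle. Both groups share the genotype and the cytokines. SC-57461A inhibits leukotriene A4 hydrolase, which makes leukotriene B4. The labels give no age and do not tie libraries to separate animals or cultures, so the p-values reflect how far these libraries vary, which may be technical only.

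HIF is a dimer of an oxygen-regulated α subunit (HIF-1α from Hif1a or HIF-2α from Epas1) and the constant partner ARNT. When oxygen is present, prolyl hydroxylases mark the α subunits, the von Hippel-Lindau ubiquitin ligase binds them, and they are degraded. When oxygen is low the α subunits persist, bind DNA at hypoxia response elements with the core ACGTG or GCGTG, and raise genes of glycolysis, mitochondrial turnover and blood vessel growth. The α subunits are thus controlled mainly as proteins, and a transcript level does not report HIF activity. In activated lymphocytes HIF-1α also accumulates at normal oxygen, and its targets support glycolysis.

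The libraries held 47376196 to 52564876 counts with SC-57461A and 50313937 to 71155654 with vehicle. By summed FPKM they fell into 2 sets that cross the treatments. Set A held SC-57461A replicates 2 and 3 and vehicle replicates 1 and 2, and set B held SC-57461A replicates 1 and 4 and vehicle replicates 3 and 4. A model with library set as a term (called set-adjusted below) therefore stands beside the pooled fit, and neither the labels nor the headers say what the sets are. All 12 ILC2 markers on the list used here were detected in every library, with summed levels of 17042 to 19305 CPM (counts scaled to library size, here by library totals and elsewhere with TMM factors) with SC-57461A and 15702 to 18819 with vehicle. Low levels of genes of other cell types differed by set and are given beside the results they touch. The stromal list summed to 0.945 to 9.22 CPM with SC-57461A and 1.67 to 15.5 with vehicle, the T cell list to 10.5 to 15.5 and 9.91 to 16.2, and the B cell list to 15.5 to 16.4 and 14.1 to 17.5, in the same order of groups. The mast cell list, nearly all of it Kit, summed to 160 to 370 CPM with SC-57461A and 255 to 477 with vehicle. The part of these markers in the results was not tested. In bulk RNA, a change in the share of cells and a change in RNA per cell cannot be told apart.

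The promoters of 4 genes called in the set-adjusted model are shown because they differ in how many copies they hold of the motif that HIF reads, down to none in Vegfa. Each window runs from 250 bases before to 50 bases after the annotated start (RefSeq, GRCm38.p6), and capitals mark the core ACGTG or GCGTG on either strand, so that CACGT and CACGC are the same cores read on the other strand. The hexamer CACGTG holds ACGTG on each strand and is also the E-box that MYC and MAX recognise. The windows are chr7:138909457-138909756 (minus strand) for Bnip3, chr12:54203825-54204124 (minus strand) for Egln3, chr2:71872974-71873273 (plus strand) for Pdk1 and chr17:46032328-46032627 (minus strand) for Vegfa.
Bnip3: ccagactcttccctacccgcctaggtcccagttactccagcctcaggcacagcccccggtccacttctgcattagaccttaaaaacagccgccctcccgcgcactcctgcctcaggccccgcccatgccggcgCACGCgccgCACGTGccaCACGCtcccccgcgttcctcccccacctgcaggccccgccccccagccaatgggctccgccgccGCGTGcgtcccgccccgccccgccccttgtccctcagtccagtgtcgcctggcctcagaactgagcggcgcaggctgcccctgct
Egln3: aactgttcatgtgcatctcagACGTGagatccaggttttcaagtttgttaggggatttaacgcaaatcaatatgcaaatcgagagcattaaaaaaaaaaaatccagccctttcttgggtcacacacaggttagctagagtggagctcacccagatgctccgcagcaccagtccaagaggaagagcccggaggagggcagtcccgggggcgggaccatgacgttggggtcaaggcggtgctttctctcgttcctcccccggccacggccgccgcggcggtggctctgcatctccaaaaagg
Pdk1: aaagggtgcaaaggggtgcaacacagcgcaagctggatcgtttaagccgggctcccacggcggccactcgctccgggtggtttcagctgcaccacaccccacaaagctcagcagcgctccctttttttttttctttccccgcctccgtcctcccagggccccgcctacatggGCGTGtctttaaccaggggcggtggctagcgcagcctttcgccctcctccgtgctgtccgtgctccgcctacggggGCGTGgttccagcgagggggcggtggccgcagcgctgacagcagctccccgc
Vegfa: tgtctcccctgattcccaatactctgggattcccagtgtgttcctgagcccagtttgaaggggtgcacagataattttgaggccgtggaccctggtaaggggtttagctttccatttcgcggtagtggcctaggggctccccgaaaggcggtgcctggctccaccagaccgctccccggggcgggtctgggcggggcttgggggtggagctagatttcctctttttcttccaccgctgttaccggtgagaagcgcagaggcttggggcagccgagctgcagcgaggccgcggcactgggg

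Bnip3 had the most, with cores in 4 separate stretches whose first bases lie at -117, -108, -99 and -35 from the start. The stretch at -108 is a CACGTG, a hexamer found in 7.15% of all windows. Pdk1 had GCGTG at -78 and -2, and Egln3 had ACGTG at -229. The Vegfa window nearest the start of the gene held no core, which says only that these letters are not in this window. A second Vegfa window, at an internal start (chr17:46025114-46025413), held cores at -218 and -211. Of the other genes with a window, Hk2 had cores at -226 and -52, Pfkfb3 at -60 in its first window and at -122, -53 (a CACGTG) and 38 in its second, Egln1 at -126 and -68, and Hif1a itself at -135 (a CACGTG) and -70. Windows were matched for 8 of the 10 genes, all but Epas1 and Bnip3l, and 8 of these 8 held a core in at least 1 window. The motif is common: 43.8% of all 32851 windows held it, as did at least 1 window of 67.1% of the tested genes that have one. A match describes letters only, and binding was not measured.

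Per unit of gene length and averaged over the library sets, Hif1a was the most abundant of the 10 transcripts and Vegfa the least. In FPKM, which scales reads by gene length and library total, Hif1a averaged 93.9 ± 33.4 with SC-57461A and 99.3 ± 25.6 with vehicle (mean ± SD, n = 4 each). This placed it above 96.1% of tested genes with SC-57461A and above 96.4% with vehicle. Bnip3 followed at 69.1 ± 5.21 and 48 ± 4.56 FPKM, in the same order of groups, and then Egln3 at 40.3 ± 9.66 and 31.8 ± 6.96 FPKM. The gap between Hif1a and Bnip3 was beyond the spread with vehicle, while with SC-57461A the 2 genes overlapped. In both SC-57461A libraries of set A Bnip3 was the higher of the 2, at 70.3 and 75.9 FPKM, beside 67.5 and 62.7 FPKM for Hif1a. Egln1 had 18.4 ± 4.77 FPKM with SC-57461A and 16.9 ± 4.12 with vehicle, overlapping with Bnip3l at 17.4 ± 1.15 and 14.9 ± 0.678 FPKM. Hk2 (10.7 ± 2.39 with SC-57461A, 8.76 ± 1.57 with vehicle) and Epas1 (9.19 ± 1.57 with SC-57461A, 10.4 ± 1.29 with vehicle) overlapped and changed places between the treatments. Below them came Pfkfb3 at 5.12 ± 0.873 FPKM with SC-57461A and 4.06 ± 0.625 with vehicle. Pdk1 (3.26 ± 0.96 with SC-57461A, 2.49 ± 0.551 with vehicle) and Vegfa (3.19 ± 0.371 with SC-57461A, 1.84 ± 0.369 with vehicle) overlapped at the bottom of the order. In set A Pdk1 was the lower of this pair in every library, with a mean of 2.23 FPKM over both treatments, beside 2.67 FPKM for Vegfa.

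**Figure D1:**
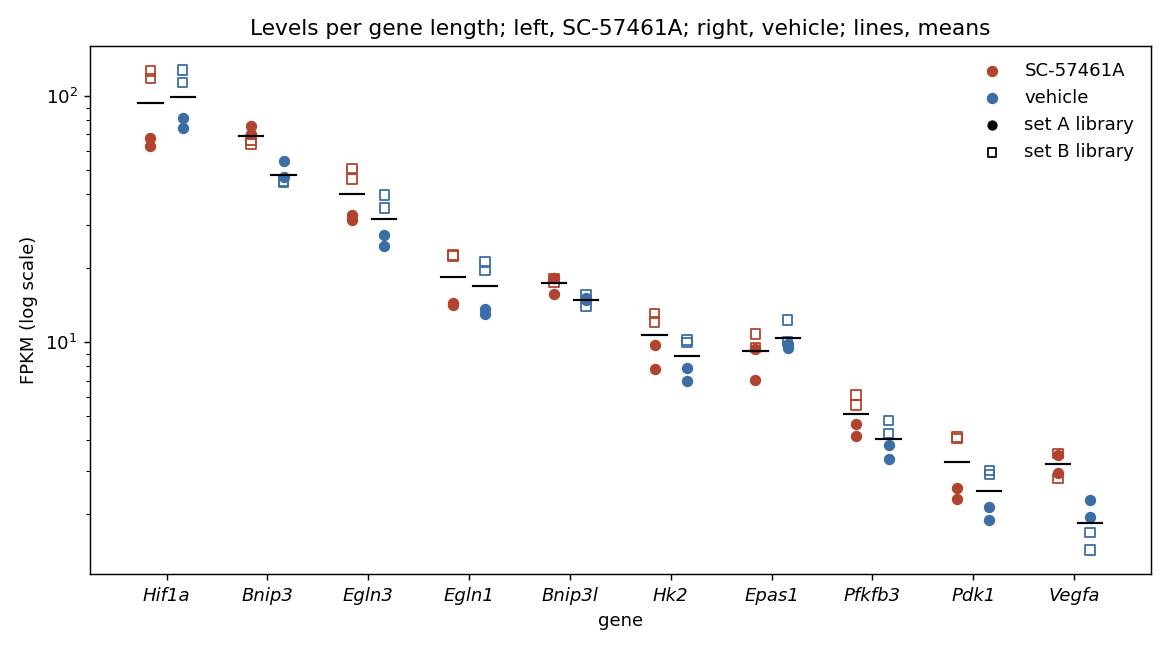
FPKM of the 10 genes on a log axis in the 8 libraries, with SC-57461A libraries left and vehicle libraries right of each tick, filled circles for set A and open squares for set B, and lines for means of 4 libraries. Hif1a has the highest mean (62.7 to 127 FPKM with SC-57461A, 74.1 to 128 with vehicle) and Vegfa the lowest (2.8 to 3.53 with SC-57461A, 1.43 to 2.29 with vehicle), while Bnip3 is above Hif1a in both SC-57461A libraries of set A.

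The comparison of SC-57461A with vehicle asks which of these transcripts change when the hydrolase inhibitor is added. None of the 10 passed the pooled edgeR test over all 15095 genes (adjusted p under 0.05), where 41 genes (0.272%) were called higher and 9 (0.0596%) lower. With library set in the model 6 of the 10 rose, Egln3, Bnip3, Vegfa, Pdk1, Hk2 and Pfkfb3, and none fell, where 2.83% of all tested genes rose and 2.5% fell. The fold change was alike in both fits, and what differed was the standard error: for Bnip3 the log2 fold change was 0.56 with an SE of 0.142 pooled and 0.0674 set-adjusted. At an unadjusted p under 0.05 the pooled fit held 4 of the 10 genes (Bnip3, Bnip3l, Vegfa and Pfkfb3) and 6.68% of all genes. DESeq2 without library set called 2 of them higher, Bnip3 and Vegfa (0.835% of genes higher and 0.557% lower), and with library set it called 7, adding Bnip3l to the 6 (5.16% higher and 6.73% lower). Fitted on set A alone edgeR called none of the 10 (0.49% of genes higher, 0.134% lower), and on set B alone it called Bnip3 and Vegfa (0.574% higher, 0.107% lower). The genes were chosen with earlier results of these data known, so these counts are descriptions of this group and no evidence from an independent choice.

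For 8 of the 10 genes the 2 SC-57461A libraries lay above the 2 vehicle libraries in set A and again in set B, which 9.63% of all tested genes did; none of the 10 lay below in both sets, as 10.3% of genes did. The exceptions were the 2 HIF subunits, Hif1a and Epas1. Over all libraries, 3 genes (Bnip3, Bnip3l and Vegfa) had every SC-57461A library above every vehicle library, against 3.01% of tested genes, and none had every one below (3.13%). The median log2 fold change of the 10 was 0.34 pooled, 0.29 in set A and 0.36 in set B, beside 0.0094, 0.0014 and 0.0019 over all genes tested. None of the 10 was called as differing between the sets in its response (edgeR interaction test, smallest adjusted p = 0.908, 0 of 10 at an unadjusted p under 0.05); over all genes 1 was called (0.00662%) and 749 had an unadjusted p under 0.05.

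**Figure D2:**
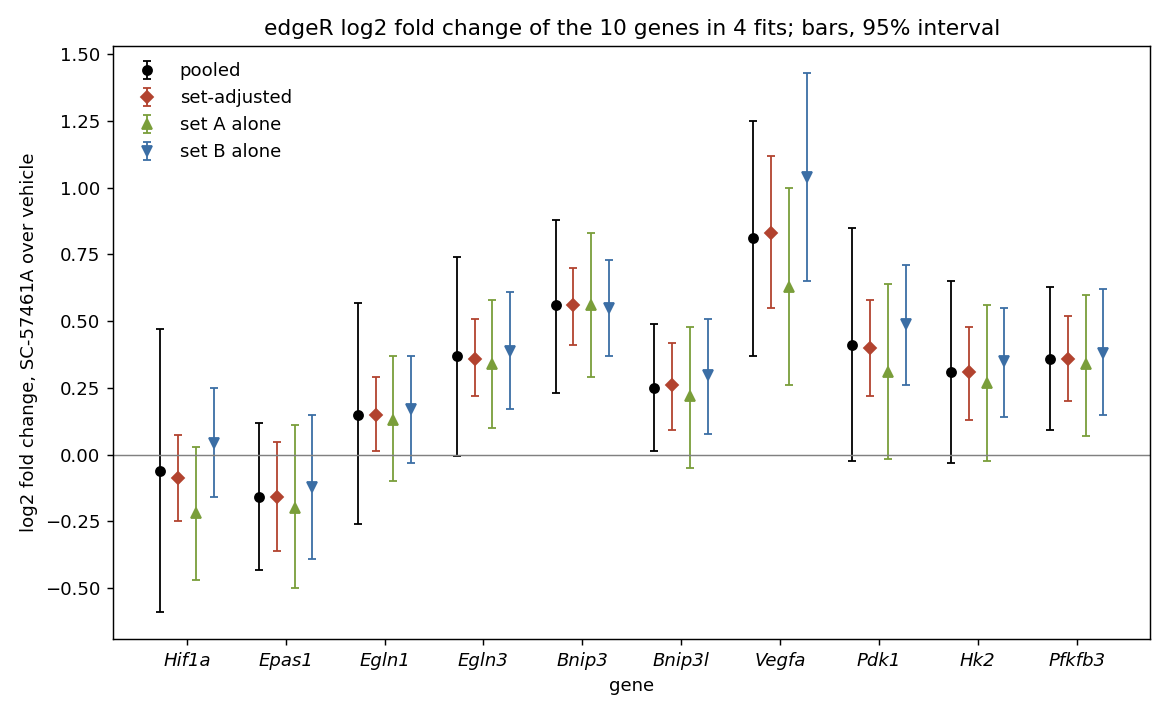
Log2 fold change of SC-57461A over vehicle (edgeR, vertical axis) for the 10 genes in the pooled, set-adjusted, set A and set B fits, with 95% intervals. Hif1a and Epas1 have intervals that cross 0 in all 4 fits. Bnip3 (0.56 pooled), Vegfa (0.81 pooled) and Pfkfb3 (0.36 pooled) have intervals wholly above 0 in all 4.

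The transcripts of the HIF α subunits did not pass in any of the fits run. Hif1a (ENSMUSG00000021109, chromosome 12, 73901375 to 73947530 in mm10), the inducible subunit of most lymphocytes, had, with SC-57461A, 472 and 453 CPM in set A beside 799 and 767 in set B. With vehicle it had 568 and 513 CPM in set A beside 801 and 714 in set B. Within set A both SC-57461A values lay below both vehicle values, and within set B the groups overlapped. Over both treatments, the 4 libraries of set A averaged 502 ± 50.8 CPM (SD) and the 4 of set B 770 ± 40.3. The set-adjusted log2 fold change was -0.088 (95% interval -0.25 to 0.075, adjusted p = 0.531). In set A alone it was -0.22 and in set B alone 0.043, so its sign turned between them. Over the 21 alternatives to the pooled fit it ran between -0.22 and 0.057, and it was also above 0 without SC-57461A replicate 2 or 3 and without vehicle replicate 3. Hif1a overlaps the antisense gene Gm15283 and the protein-coding gene Gm49321 on its own strand, and whether counting used strand is not stated in these sources. Gm15283 had 92 to 284 counts per library with SC-57461A and 159 to 319 with vehicle, against 22078 or more for Hif1a. No level is given here for Gm49321.

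Epas1 (ENSMUSG00000024140, chromosome 17, 86753907 to 86833410) encodes HIF-2α, a subunit known for its expression in endothelium. It had 59.5 and 45.6 CPM in set A and 61 and 55.7 in set B with SC-57461A, against 61.6 and 59.1 in set A and 56.8 and 69.6 in set B with vehicle. The groups overlapped in both sets, and the set-adjusted log2 fold change was -0.16 (95% interval -0.36 to 0.049, adjusted p = 0.356). Epas1 averaged 60.8 ± 6.3 CPM in set B and 56.4 ± 7.31 CPM in set A (SD, n = 4 libraries in each set). Of the 7 endothelial markers, Cdh5, Kdr, Tek, Emcn and Vwf were at 0 in every set B library. Esam had 0 to 14 counts per library there, and Pecam1 had 3632 to 6066. In set B libraries 3 counts, the limit that a 0 allows, are 0.0422 to 0.0633 CPM (counting error only). The part of endothelial cells in the Epas1 values was not tested. The summed level of all 7 endothelial markers, most of it Pecam1, was 71 to 81 CPM with SC-57461A and 76.8 to 85.4 with vehicle.

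The prolyl hydroxylase genes followed. Egln3 (ENSMUSG00000035105, chromosome 12, 54178981 to 54203860) encodes PHD3, a hydroxylase that is itself a HIF target. It had 104 and 102 CPM in set A and 144 and 135 in set B with SC-57461A, against 77.8 and 85.6 in set A and 99.4 and 113 in set B with vehicle. SC-57461A libraries were higher within either set, while the lowest SC-57461A value, 102, lay below the highest vehicle value, 113, across sets. The set-adjusted log2 fold change was 0.36 ± 0.0676 (SE, 1.29-fold, adjusted p = 0.0116), beside 0.34 within set A and 0.39 within set B. Pooled it was 0.37 with an adjusted p of 0.765. It missed the threshold without vehicle replicate 1 (set-adjusted p, adjusted over all genes, 0.0528). Egln1 (ENSMUSG00000031987, chromosome 8, 124908596 to 124949254) encodes PHD2, the main oxygen sensor of most cells. It had 59.2 and 61.9 CPM in set A and 84 and 87.7 in set B with SC-57461A, against 57.1 and 53.6 in set A and 79.3 and 73.2 in set B with vehicle. SC-57461A libraries were above vehicle libraries in either set, by a small margin. The set-adjusted log2 fold change was 0.15 (95% interval 0.013 to 0.29), and it did not pass (adjusted p = 0.186).

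Among the targets that act on mitochondria, Bnip3 rose set-adjusted and Bnip3l did not pass. Bnip3 (ENSMUSG00000078566, chromosome 7, 138890836 to 138909519) encodes an outer-membrane receptor that hands mitochondria to autophagosomes. It had 189 and 210 CPM in set A and 160 and 159 in set B with SC-57461A, against 126 and 145 in set A and 108 and 109 in set B with vehicle. Every SC-57461A library lay above every vehicle library. Bnip3 averaged 180 ± 24.7 CPM with SC-57461A and 122 ± 17.5 with vehicle, and rose 1.47-fold set-adjusted (log2 0.56, adjusted p = 0.000632), with log2 values of 0.56 within set A and 0.55 within set B. Pooled, its adjusted p was 0.307. It remained past the threshold in all 12 alternatives to the set-adjusted fit (adjusted p up to 0.00584). Bnip3 has near-identical copies, among them the pseudogenes Gm16439 (98.9% identity) and Gm6532 (98.6%), and it overlaps the antisense gene Gm45507, so some of its reads could be shared. Gm16439 had 29 to 73 counts per library with SC-57461A and 21 to 64 with vehicle, against 6207 or more for Bnip3. No levels are given here for the copies Gm6532, Gm9419, AC160336.1 and Gm45507. How reads that match several copies were counted is not stated in these sources.

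Bnip3l (ENSMUSG00000022051, chromosome 14, 66985239 to 67008877) encodes NIX, the related mitophagy receptor known for clearing mitochondria from maturing red cells. It had 72.3 and 86 CPM in set A and 72 and 77.4 in set B with SC-57461A, against 68.2 and 68.5 in set A and 64 and 57.3 in set B with vehicle. The groups did not overlap, yet the difference was small. The set-adjusted log2 fold change was 0.26 (95% interval 0.093 to 0.42, adjusted p = 0.0706). It passed in DESeq2 with library set (adjusted p = 0.0248) and in the set-adjusted fit without SC-57461A replicate 2 (0.0365). A pseudogene, Bnip3l-ps, is 99.4% identical and had 400 to 568 counts per library with SC-57461A and 337 to 613 with vehicle, beside 3363 or more for Bnip3l. In the wider list of mitophagy genes 12 of 14 were tested and none passed the pooled test. With library set in the model 1 rose and 1 fell, beside 2.83% and 2.5% of all genes. Set-adjusted, Gabarapl1, an adaptor of the autophagosome membrane, rose (log2 0.69, adjusted p = 0.000907). Optn, an autophagy receptor, fell (log2 -0.40, adjusted p = 0.028). The other receptor among the named genes, Fundc1, had a log2 fold change of 0.34 (adjusted p = 0.052) and passed in DESeq2 with library set (adjusted p = 0.021). The median log2 fold change of the list was 0.0043 pooled and -0.00058 set-adjusted.

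Vegfa showed the largest fold change of the 10 and, averaged over the library sets but not within set A, the lowest mean FPKM. It was called in all 12 alternatives to the set-adjusted fit (adjusted p up to 0.0235). Vegfa (ENSMUSG00000023951, chromosome 17, 46016993 to 46032369) encodes vascular endothelial growth factor A. It had 17.8 and 15.6 CPM in set A and 12.9 and 16.7 in set B with SC-57461A, against 10 and 11.7 in set A and 7.79 and 6.59 in set B with vehicle. Every SC-57461A library lay above every vehicle library. The set-adjusted rise was 1.78-fold (log2 0.83 ± 0.13 SE, adjusted p = 0.00435), beside 0.63 within set A and 1.04 within set B, while the pooled adjusted p was 0.273. The difference between the sets was not called (interaction log2 0.42, 95% interval -0.11 to 0.94, unadjusted p = 0.108). Epithelial markers also stood higher with SC-57461A in set A: the summed level of the 8 markers was 36.6 to 45.4 CPM with SC-57461A and 14.4 to 23.8 with vehicle. In set B it was 9.31 to 13.1 CPM with SC-57461A and 14.2 to 16.5 with vehicle, and Krt8, Krt19, Krt20 and Cdh1 were at 0. The part of the epithelial markers in the Vegfa values was not tested. The macrophage and neutrophil list stood at 28.2 to 50.7 CPM with SC-57461A and 32.9 to 46.5 with vehicle in set A. In set B it stood at 6.28 to 6.99 and 7.99 to 8.4 CPM, in the same order, with Lyz2, S100a8, S100a9, Csf1r and C1qa at 0. Receptors for the growth factor were scarce. Of 5, 4 were tested and none passed in either model (set-adjusted, 2.83% of all genes rose and 2.5% fell). The most abundant, Nrp2, averaged 4.07 ± 0.77 CPM with SC-57461A and 5.36 ± 0.694 with vehicle. It had 145 to 235 counts per library with SC-57461A and 254 to 438 with vehicle. The other named receptors, Kdr and Nrp1, averaged under 1 CPM in both groups, with nearly all counts in set A. Kdr had 37 to 83 counts per library in set A and 0 in every set B library. Nrp1 had 77 to 96 counts per library in set A and 0 to 14 in set B.

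**Figure D3:**
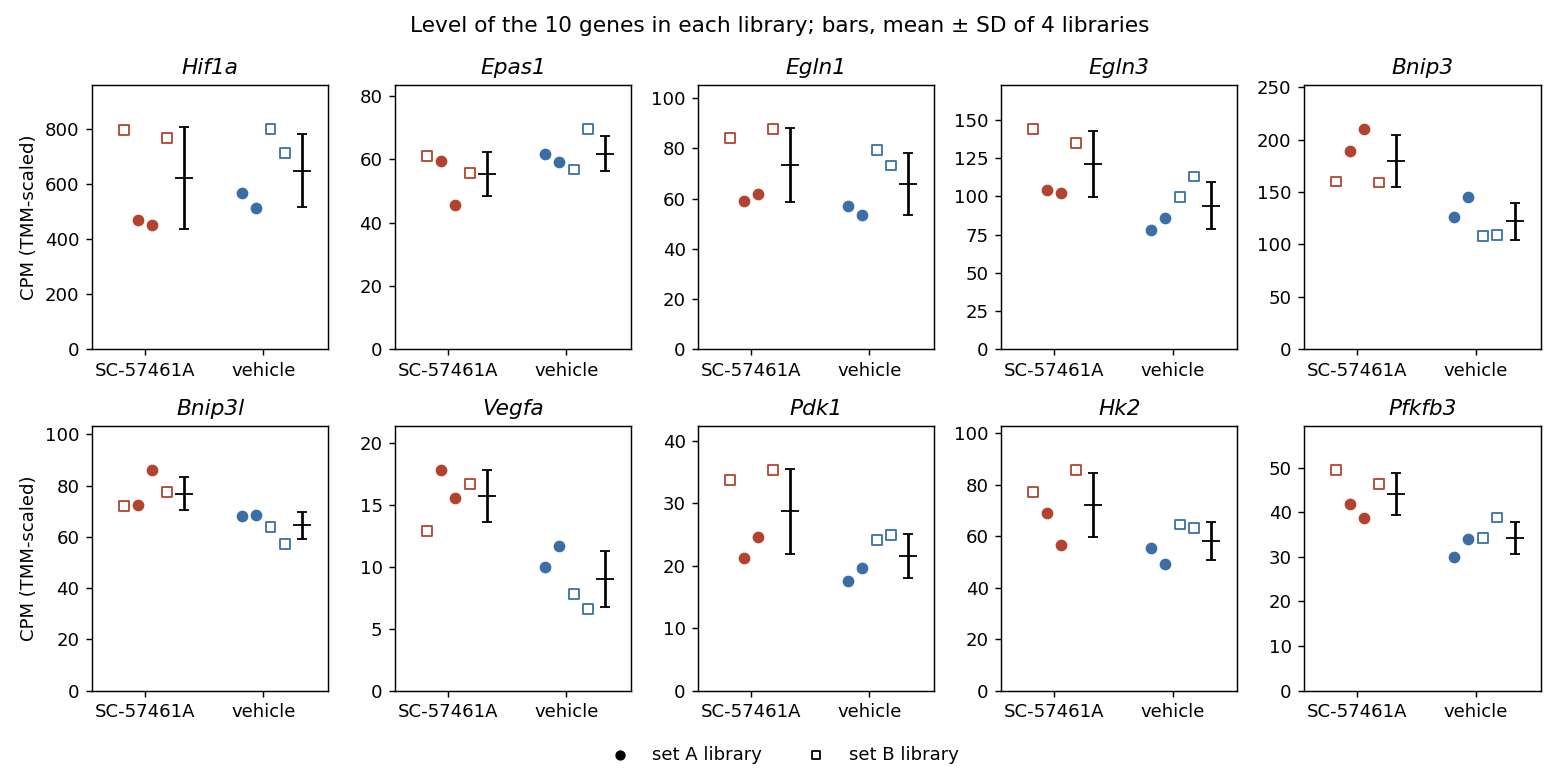
CPM of the 10 genes in each library, SC-57461A left and vehicle right, with filled circles for set A, open squares for set B, and bars for the mean ± SD of 4 libraries. Bnip3 (159 to 210 CPM with SC-57461A, 108 to 145 with vehicle), Bnip3l and Vegfa do not overlap between the treatments, while Hif1a is lower in every set A library than in any set B library.

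The 3 glucose-handling genes all rose once library set was in the model. Pdk1 (ENSMUSG00000006494, chromosome 2, 71873224 to 71903858) encodes the kinase that switches off pyruvate dehydrogenase and so keeps pyruvate out of mitochondria. It had 21.3 and 24.6 CPM in set A and 33.7 and 35.3 in set B with SC-57461A, against 17.5 and 19.7 in set A and 24.1 and 24.9 in set B with vehicle. Values were higher with SC-57461A within either set and overlapped across sets. Set-adjusted, the log2 fold change was 0.40 ± 0.0826 (SE, adjusted p = 0.0187), beside 0.31 within set A and 0.49 within set B, and it passed in 7 of 12 alternatives (adjusted p up to 0.0847). It did not pass without SC-57461A replicates 1 (adjusted p = 0.0562), 3 (0.05) or 4 (0.0847), or without vehicle replicates 1 (0.0658) or 4 (0.07).

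Hk2 (ENSMUSG00000000628, chromosome 6, 82725025 to 82774454) encodes hexokinase 2, the inducible enzyme that traps glucose in the cell. It had 69 and 56.7 CPM in set A and 77.4 and 85.7 in set B with SC-57461A, against 55.6 and 49.1 in set A and 64.6 and 63.4 in set B with vehicle. In set A the lower SC-57461A value, 56.7, lay just above the higher vehicle value, 55.6. It rose by a set-adjusted log2 of 0.31 ± 0.0797 (SE) and its adjusted p, 0.0479, lay just inside the threshold. It passed in 3 of 12 alternatives (RLE factors, DESeq2 with library set, and the fit without SC-57461A replicate 3) and missed when any of the other 7 libraries was left out, with adjusted p up to 0.18. Pfkfb3 (ENSMUSG00000026773, chromosome 2, 11471433 to 11554077) makes fructose-2,6-bisphosphate, the activator of phosphofructokinase. It had 41.8 and 38.7 CPM in set A and 49.4 and 46.3 in set B with SC-57461A, against 30 and 33.9 in set A and 34.3 and 38.8 in set B with vehicle. The lowest SC-57461A value, 38.7, was level with the highest vehicle value, 38.8. Set-adjusted, its log2 fold change was 0.36 ± 0.0743 (SE, adjusted p = 0.0185), beside 0.34 within set A and 0.38 within set B. It did not pass without SC-57461A replicate 1 (adjusted p = 0.066) or 4 (0.0674), or without vehicle replicate 1 (0.0735).

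Near relatives of these genes gave no calls. Of 16 paralogs 10 were tested, none passed in either model, and their median log2 fold change was -0.061 pooled and -0.047 set-adjusted. Of all genes 0.272% rose and 0.0596% fell pooled, and 2.83% and 2.5% set-adjusted. No call among 10 genes is near those shares. Pfkfb4, a second HIF-responsive isoform of the bifunctional enzyme, averaged 7.09 ± 1.66 CPM with SC-57461A and 5.21 ± 1.08 with vehicle (set-adjusted log2 0.43, adjusted p = 0.145). Pdk2, another pyruvate dehydrogenase kinase, averaged 2.34 ± 0.649 CPM with SC-57461A and 3.58 ± 0.373 with vehicle, with no overlap (set-adjusted log2 -0.62, adjusted p = 0.123). The constitutive hexokinase Hk1 stood at 334 ± 69.6 CPM with SC-57461A and 377 ± 66.2 with vehicle (set-adjusted log2 -0.18, adjusted p = 0.202), and is named outside the rule. Vegfb, a relative of Vegfa, had a set-adjusted log2 fold change of 0.14 (adjusted p = 0.426). Of the 10 genes of the pyruvate dehydrogenase complex, its phosphatases and pyruvate entry, all were tested and none passed pooled. With library set in the model 1 rose and none fell, beside 2.83% and 2.5% of all genes. The phosphatase gene Pdp2, which counteracts the kinases, rose set-adjusted (log2 0.65, adjusted p = 0.000916). Pdp1 (log2 -0.24, adjusted p = 0.203) and Dld, the shared dihydrolipoyl dehydrogenase (0.15, adjusted p = 0.351), did not pass.

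All 16 genes of the HIF partner and oxygen sensing list were tested, and none passed in the pooled or the set-adjusted edgeR model. No call among 16 genes is near the share over all genes (set-adjusted, 2.83% rose and 2.5% fell). Their median log2 fold change was 0.042 pooled and 0.036 set-adjusted. Vhl, the substrate receptor of the ubiquitin ligase, averaged 21 ± 1.98 CPM with SC-57461A and 18.7 ± 0.395 with vehicle (set-adjusted log2 0.17, adjusted p = 0.273). Siah2, a ligase that targets prolyl hydroxylases, had a log2 fold change of 0.26 (adjusted p = 0.181) and the coactivator Ep300 of -0.38 (adjusted p = 0.0708). DESeq2 with library set called Ep300 lower (log2 -0.39, adjusted p = 0.00658). Arnt, the constant partner, averaged 60.5 ± 7.78 CPM with SC-57461A and 65.5 ± 4.67 with vehicle, and was named after its values were seen. Of 8 genes listed as possible inputs to Hif1a (Nfkb1, Rela, Ikbkb, Stat3, Mtor, Rptor, Rheb and Myc), none passed pooled. In the set-adjusted model 1 rose and 1 fell, beside 2.83% and 2.5% of all genes. Set-adjusted, Myc rose (log2 0.59, adjusted p = 0.00582) and Nfkb1, a subunit of NF-κB, fell (log2 -0.38, adjusted p = 0.0145), while Rela (-0.23, adjusted p = 0.193) did not pass. The median log2 fold change of that list was -0.049 pooled and -0.063 set-adjusted.

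All calls among other HIF targets, in both the pooled and the set-adjusted model, were for higher levels with SC-57461A. Of 34 targets outside glycolysis 27 were tested, and 2 were higher in the pooled test (0.272% of all genes were). Ak4, a mitochondrial adenylate kinase, averaged 33 ± 2.9 CPM with SC-57461A and 13.2 ± 1.73 with vehicle (log2 1.32, pooled adjusted p = 0.00226). Cxcr4, the receptor for CXCL12, averaged 12.2 ± 1.31 CPM with SC-57461A and 6.52 ± 0.688 with vehicle (log2 0.91, pooled adjusted p = 0.0253). The Cxcr4 call was lost in 13 of 21 alternatives. Set-adjusted, 12 of the 27 rose and none fell (2.83% and 2.5% of all genes), with a median log2 fold change of 0.33. They include Stc2, a secreted glycoprotein (log2 0.75, adjusted p = 9.59e-05), and, named after their values were seen, the collagen prolyl hydroxylases P4ha1 (0.42) and P4ha2 (0.50). Several of the 12, such as Hmox1, Tfrc and Ddit4 (named outside the rule), also answer to other regulators. Long-known targets did not all move: Ndrg1 (0.13, adjusted p = 0.435), Ankrd37 (0.081, adjusted p = 0.853) and Car9 (0.11, adjusted p = 0.842) did not pass, and Adm, Lox, Edn1 and Epo were too low to test. These 7 were also picked after their values were seen.

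Of the 18 glycolytic targets all were tested. In the pooled test 1 was higher (0.272% of all genes were), Aldoc, a brain-type aldolase, at 24.7 ± 2.89 CPM with SC-57461A and 8.57 ± 1.14 with vehicle (log2 1.52, adjusted p = 0.00155). Set-adjusted, 9 rose and none fell (2.83% and 2.5% of all genes), while the median over the list was 0.28 (log2) in either model. Slc16a3, the lactate exporter MCT4, averaged 355 ± 69 CPM with SC-57461A and 218 ± 27.3 with vehicle (set-adjusted log2 0.69, adjusted p = 0.000586). Tpi1, triose phosphate isomerase, averaged 926 ± 179 CPM with SC-57461A and 620 ± 70.9 with vehicle (set-adjusted log2 0.57, adjusted p = 0.000453). The pooled log2 fold change was above 0 for 17 of the 18, the exception being Hk1, and for 51.6% of all tested genes. The lists overlap with one another in Hk1, Egln2, Hif3a, Pfkfb4 and Pgf, and they were chosen with earlier results known.

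**Figure D4:**
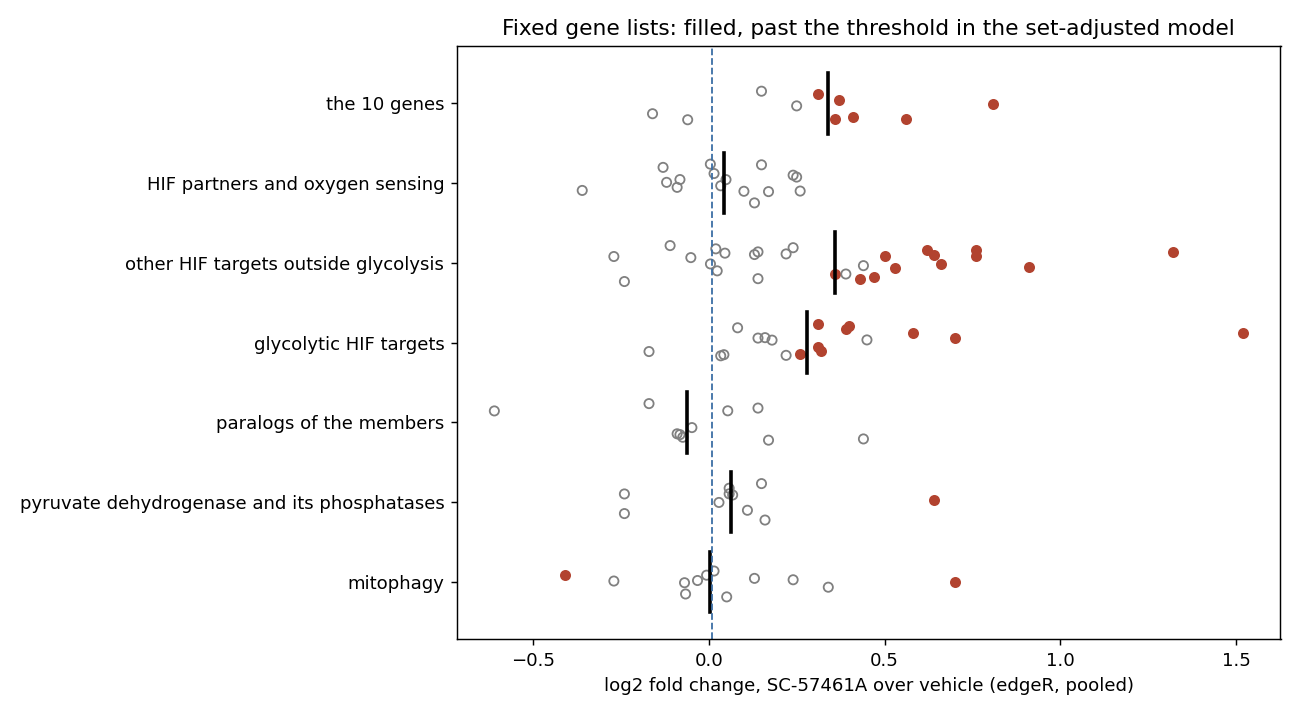
Pooled log2 fold change (horizontal axis, SC-57461A over vehicle) of the tested genes in 7 lists, with black bars for list medians, a dashed line for the median of all genes tested (0.0094), and filled points for genes past the threshold in the set-adjusted model. The 10 genes (median 0.34) and both lists of other targets (0.36 and 0.28) lie to the right of the regulators (0.042) and paralogs (-0.061).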

How the data were processed

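Total RNA of cultured ILC2s was sequenced in 8 libraries. Build mm10, cutadapt 4.7 and FastQC are named in the submitters' processing notes; aligner, counter, strand setting and annotation are not given in these sources. Per the file headers, the deposited table gives each gene and library a raw count and an FPKM, both made by the authors. Coordinates are the table's, counted from 1, and 0 value columns were left unmatched.

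Counts were filtered with filterByExpr, scaled by TMM and tested in edgeR 4.0.16 (quasi-likelihood, two-sided, R 4.3.3) with Benjamini-Hochberg adjustment over all 15095 genes. The SE is the log2 fold change divided by the root of the test statistic, and intervals use its degrees of freedom. Library set was the 4 libraries above and the 4 below the largest gap in summed FPKM. Alternatives used DESeq2 1.42.0, limma 3.58.1 on log2(FPKM + pseudocount), other scalings and filters, a replicate block and leaving out libraries. Copies were sought with BLAST 2.17.0 (at least 95% identity over 50% of the shorter transcript). The genes, lists and library sets were chosen with earlier results of these data known. Named are the 10 genes, list members called in the pooled fit, and the 3 of each list with the smallest pooled p; others are marked. The lists of 10 macrophage and neutrophil, 8 epithelial and 7 endothelial markers are given beside the results they touch. Stromal, T cell, B cell and mast cell markers were also summed.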

Additional observations from a re-analysis of the deposited data

How the results depend on the processing

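The pooled fit called 41 genes higher and 9 lower. DESeq2 called 117 and 78, DESeq2 with library set 653 and 851, edgeR with library set 427 and 377, set A alone 77 and 21, and set B alone 86 and 16. Limma on log2(FPKM + 0.1) called 32 and 4, and limma without a filter 44 and 20. Of the 10 HIF genes, 0 were called in the pooled fit, 2 by DESeq2, 6 with library set, 7 by DESeq2 with library set, and 2 in set B alone. Of the 101 tested genes of the other lists, 3 were called in the pooled fit, 10 by DESeq2, 26 with library set, 30 by DESeq2 with library set, 9 in set A alone and 10 in set B alone. Over all genes the shares called higher and lower were 0.272% and 0.0596% pooled, 0.835% and 0.557% by DESeq2, 2.83% and 2.5% with library set, 5.16% and 6.73% by DESeq2 with library set, 0.49% and 0.134% in set A alone, and 0.574% and 0.107% in set B alone. The cause of these differences was not tested.

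Leaving out 1 library, the pooled fit called 25 to 31 genes higher and 3 to 7 lower, 0 of the 10 genes, and 2 to 3 list members. Set-adjusted, such fits called 151 to 483 genes higher and 89 to 490 lower (leaving out SC-57461A replicate 1 gave 264 and 158, its replicate 3 gave 263 and 240, and its replicate 4 gave 160 and 89; vehicle replicate 1 gave 178 and 147, its replicate 2 gave 151 and 111, and its replicate 4 gave 211 and 118), 18 to 28 list members, and 2 to 6 of the 10 genes, with 2 without vehicle replicate 1 and 3 without SC-57461A replicate 1 or 4. The set-adjusted alternatives were chosen after seeing the data.

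Deviations of same-numbered libraries from their treatment means correlated at -0.587, 0.635, -0.561 and 0.608 for replicates 1, 2, 3 and 4. Both libraries were in the same set for replicates 2 and 4, and in different sets for replicates 1 and 3. The set difference was left in these deviations, so they cannot show whether replicate numbers pair the libraries. With a replicate block the pooled fit called 14 genes higher and 1 lower, 0 of the 10 genes and 0 list members, and the set-adjusted fit called 553 higher and 586 lower and 5 of the 10 genes, with Hk2 lost (adjusted p = 0.0537). No called value changed sign under any alternative run. Ak4 and Aldoc lost their pooled calls under the replicate block (edgeR adjusted p = 0.0982 and 0.0942) and in no other alternative. Genes of a few CPM or less, such as the VEGF receptors, have wide intervals at this depth, and Kdr and Nrp1 also differed between the library sets.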
